A study of Mus musculus with 3 samples.

Results

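Tubular injury markers are genes whose transcripts or proteins are widely used as signs of damage to the kidney tubule, and 7 of them were looked for here: Havcr1, Lcn2, Spp1, Cd44, Vcam1, Sox9 and Lgals3. The members were all probe sets of the array whose only gene symbol in the platform annotation was one of these names. They came to 14 probe sets of 6 genes, among 34945 probe sets with a single symbol, and Spp1 was not analysed here. A probe set is a group of short oligonucleotides that together report on a transcript. Kidney RNA of C57BL/6 mice was hybridised to mouse expression arrays, 1 array per mouse. All of the mice were 3 weeks old at the start. The control group is 1 mouse. The acetate group is 2 mice that drank 200 mM acetate, the 2-carbon fatty acid called C2 in the labels, for 6 weeks. They are called acetate-fed mouse 1 and 2, by the numbers in their labels. No other genotype or agent is named, and what the control mouse drank is not given in the sources used here. Housing was conventional for all of the mice. The question was how far each marker stood from the control in each acetate-fed kidney, and whether the probe sets of a gene agreed.

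The kidney tubule is lined by epithelial cells that, when damaged, lose their transport functions, switch on a set of injury genes and may then divide to repair the lining. Havcr1 encodes KIM-1, a membrane receptor that injured proximal tubule cells use to take up dead cells, and Lcn2 encodes NGAL, a secreted protein that binds iron-carrying siderophores and is made by stressed tubules and by neutrophils. Cd44, a receptor for hyaluronan, and Vcam1, an adhesion protein for leukocytes, appear on injured or incompletely repaired tubule cells, and both are also made by other cells. Lgals3 encodes galectin-3, a sugar-binding protein of epithelium and macrophages, and Sox9 is a transcription factor of the repairing tubule.

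All values are deposited log2 expression values, on which a difference of 1 is a 2-fold change. The array medians lay between 4.91 and 4.94. Affymetrix control probe sets aside, 45037 remained, of which the 27022 with a mean of at least 4.21 over the arrays (the upper 60%) were tested. Markers of the kidney tubule were plainly present, among them the sodium-phosphate transporter gene Slc34a1 of the proximal tubule at 13.41, 13.24 and 13.17 on the control, mouse 1 and mouse 2 arrays. Background was not analysed here, so folds over low control values, as for Havcr1 and Cd44, are approximate. With 1 control array, every difference includes whatever was particular to that kidney, and the 2 differences share it. The smallest p an exact permutation test of 1 array against 2 can give is 0.333. In whole tissue, more RNA of a gene per cell and more cells that express it cannot be told apart.

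Lcn2 and Havcr1 stood furthest from the control in acetate-fed mouse 1, while Lcn2 was the gene that also stood more than 2-fold from it in acetate-fed mouse 2 by the probe set chosen to stand for each gene (the tested one with the highest mean). Lcn2 measured 6.36 in the control kidney, 10.44 in that of mouse 1 and 8.67 in that of mouse 2 on its only probe set (1427747_a_at). Both acetate-fed kidneys lay well above the control, by 16.9-fold in mouse 1 and 4.95-fold in mouse 2, and they were 3.42-fold apart. No tested probe set of the array stood further above the control than Lcn2 in mouse 1 (rank 1 of 27022), and in mouse 2 it held rank 7. These ranks run from the highest difference down, so probe sets far below the control do not compete in them. The acetate-fed mean was 9.56 ± 1.25 (SD, n = 2), and limma's test gave an adjusted p of 0.557.

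Havcr1 measured 4.93 in the control kidney, 8.61 in that of mouse 1 and 5.58 in that of mouse 2 on probe set 1434716_at. Mouse 1 stood alone: it was 12.8-fold above the control and 8.13-fold above mouse 2, whereas mouse 2 was 1.58-fold above the control. Ranked from the highest difference down, as for Lcn2, the Havcr1 difference in mouse 1 held rank 2 of 27022 and that in mouse 2 rank 494. The acetate-fed mean of 7.09 ± 2.14 (SD, n = 2) had a spread nearly as large as its distance of 2.17 from the control (limma adjusted p = 0.871). The other Havcr1 probe set, 1450364_a_at, measured 4.01 in the control kidney, 6.71 in that of mouse 1 and 4.22 in that of mouse 2, the same order with smaller differences. Its control value was below the mean required for testing, so it was tested through its level in mouse 1.

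The adhesion receptors followed the same order of arrays. Cd44 measured 4.35 in the control kidney, 7.12 in that of mouse 1 and 5.21 in that of mouse 2 on probe set 1423760_at, a 6.82-fold difference in mouse 1 and 1.81-fold in mouse 2 (acetate-fed mean 6.16 ± 1.35, SD, n = 2; limma adjusted p = 0.812). The probe set 1434376_at of Cd44 was 3.47, 5.61 and 3.92 in the control, mouse 1 and mouse 2, and it too was tested only through mouse 1, since its other values lay below the required mean. The remaining Cd44 probe sets were not tested. Of these, 1452483_a_at measured 3.73 in the control kidney, 4.38 in that of mouse 1 and 3.85 in that of mouse 2, and 1443265_at was 2.94, 2.94 and 2.97, near the low end of the table and with mouse 1 equal to the control.

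Vcam1 had 3 tested probe sets. On 1415989_at, which stands for the gene, it measured 6.81 in the control kidney, 8.88 in that of mouse 1 and 7.27 in that of mouse 2, or 4.18-fold and 1.37-fold above the control (acetate-fed mean 8.07 ± 1.14, SD, n = 2; limma adjusted p = 0.871). On 1448162_at it was 5.87, 8.99 and 7.31, or 8.65-fold and 2.70-fold above the control. On 1451314_a_at it was 6.15, 7.17 and 6.46, or 2.03-fold and 1.24-fold. All 3 put mouse 1 highest and the control lowest, but whether Vcam1 passed 2-fold in mouse 2 depended on the probe set.

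Lgals3 measured 10.08 in the control kidney, 10.80 in that of mouse 1 and 10.81 in that of mouse 2 on its only probe set (1426808_at). The acetate-fed kidneys were nearly equal, and both lay above the control, by 1.65-fold and 1.66-fold. Lgals3 rose in limma's test (acetate-fed mean 10.81 ± 0.0082, SD, n = 2; adjusted p = 0.0255), the single call among 10 tested probe sets of these markers. Over all tested probe sets limma called 5.18% higher and 5.35% lower, so 1 call in 10 is close to the background. Of the calls over the whole array, 92.3% were probe sets with exactly tied acetate-fed values, against 33.7% of all tested probe sets. The Lgals3 values were not tied but differed by only 0.01, and the call was lost under 3 of the 6 other fits. With the exactly tied pairs left out of limma's fit, 9 of the 10 probe sets rose, all but that of Sox9, against 6.55% of all probe sets in that fit called higher and 4.97% lower. That fit took 26.55 degrees of freedom from all probe sets together and 1 from the acetate-fed pair, so it weighs the size of the mean difference more than the agreement of the mice. The adjusted p in it was 3.39e-08 for Lcn2 and 0.00504 for Havcr1 (1434716_at).

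Sox9 differed little. On its tested probe set (1451538_at) it measured 4.61 in the control kidney, 4.81 in that of mouse 1 and 4.61 in that of mouse 2, with mouse 2 exactly equal to the control (acetate-fed mean 4.71 ± 0.15, SD, n = 2; limma adjusted p = 0.871). The probe set 1424950_at was 2.87 on all 3 arrays and 1433889_at was 2.88, 2.88 and 2.83 in the control, mouse 1 and mouse 2. Both lie near the lowest value of the table, 2.10. The values of the tested probe set also lie below the array medians of 4.91 to 4.94, and whether Sox9 was detected was not analysed.

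**Figure D1:**
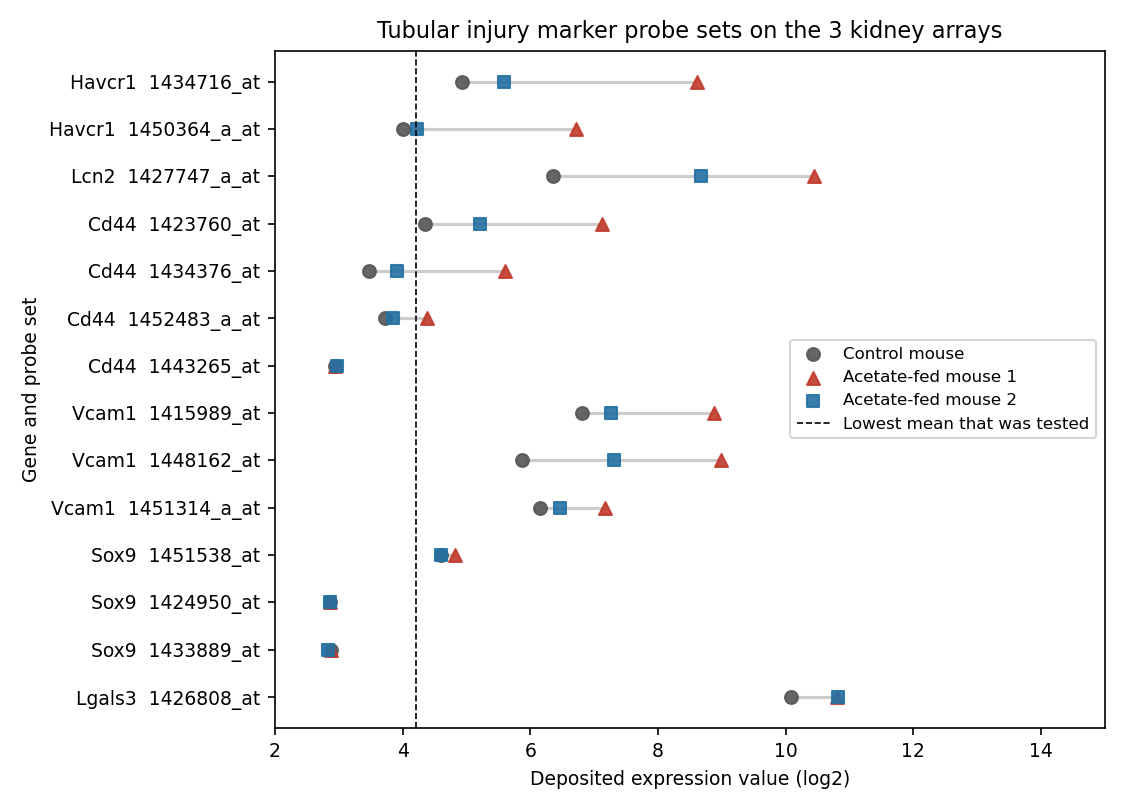
Deposited log2 value (horizontal axis) of each of the 14 probe sets (rows, grouped by gene) in the control mouse (grey circles), acetate-fed mouse 1 (red triangles) and acetate-fed mouse 2 (blue squares). The dashed line at 4.21 is the lowest mean that was tested. Mouse 1 stands to the right of mouse 2 for Havcr1, Lcn2 and Vcam1 and for 3 of the 4 Cd44 probe sets, while the acetate-fed mice coincide for Lgals3.

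Of the 10 tested probe sets, 9 were higher than the control in both mice at any size, against a background of 26.9% of all tested probe sets. In mouse 1, 8 of them passed 2-fold, against 1.42%. Without the Havcr1 and Cd44 probe sets that were tested only through mouse 1, the count was 6 of 8, while 7 of 8 were higher in both mice, and 7 of 8 were called by limma without the tied pairs. In mouse 2 the count was 2, Lcn2 and the Vcam1 probe set 1448162_at, against 0.551%, and the same 2 passed in both mice, against 0.344%. Taking 1 probe set per gene, 4 of 6 genes (Lcn2, Havcr1, Cd44 and Vcam1) were at least 2-fold higher in mouse 1, against 1.77% of 13473 genes, and 1 (Lcn2) in mouse 2 and in both, against 0.601% and 0.408%. The median difference over the 6 genes was 2.42 in mouse 1 and 0.69 in mouse 2, and over all tested genes it was 0 in each. Both differences use the same control array, so they are not independent, and the 2 Havcr1, 2 Cd44 and 3 Vcam1 probe sets report on the same kidneys.

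**Figure D2:**
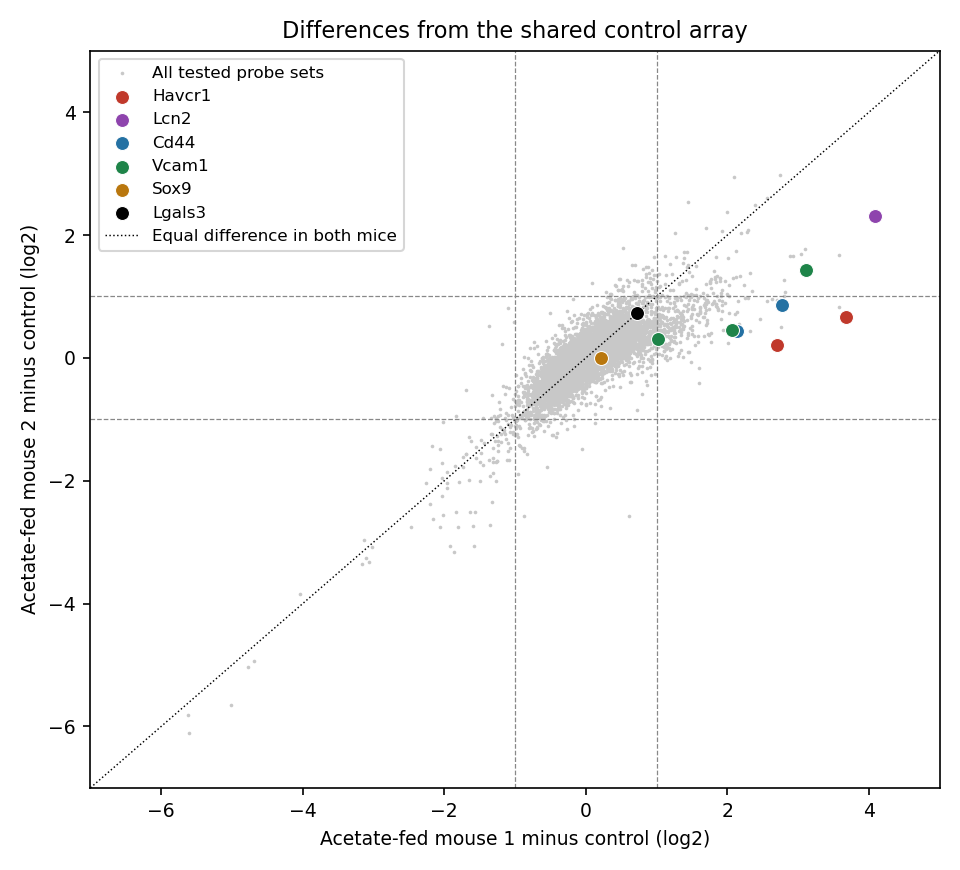
Difference from the control in acetate-fed mouse 1 (horizontal axis, log2) and acetate-fed mouse 2 (vertical axis, log2) for 27022 tested probe sets (grey) and the 10 tested injury marker probe sets (coloured by gene). Dashed lines mark 2-fold and the dotted line equal differences. Lgals3 lies on the dotted line, while Lcn2, Havcr1, Cd44 and Vcam1 lie to the right of it, with larger differences in mouse 1.

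The acetate-fed mice can also be set against each other without the control. Among the 10, 7 exceeded mouse 2 by 2-fold or more in mouse 1, against a background of 0.392% (106 of 27022), and 0 were 2-fold lower, against 0.0407% (11 of 27022). The Havcr1 probe set 1450364_a_at and the Cd44 probe set 1434376_at were tested only because mouse 1 was high, so their part in these counts is set by the filter. Without them the count was 5 of 8. Havcr1 led with a difference of 3.02 between the mice on 1434716_at (rank 2 of 27022, from the largest excess in mouse 1 down) and 2.49 on 1450364_a_at. Cd44 followed with 1.91 and 1.69, Lcn2 with 1.77, and Vcam1 with 1.68, 1.61 and 0.71. Sox9 was 0.21 higher in mouse 1, and Lgals3 was -0.01 apart. Of the 10, 9 were higher in mouse 1 than in mouse 2 at any size, against 30.7%, and 8 had the order control, mouse 2, mouse 1, against 11.9%; without the same 2 probe sets the counts were 7 and 6 of 8. In 8 of the 10 probe sets, all but those of Lcn2 and Lgals3, the acetate-fed mice were further apart than mouse 2 and the control were, which held for 28.3% of all tested probe sets (6 of 8 without those 2). For these genes the spread within the acetate group was thus wider than the distance between the control and 1 of its mice. With 1 mouse on each side this comparison has no replicate check.

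**Figure D3:**
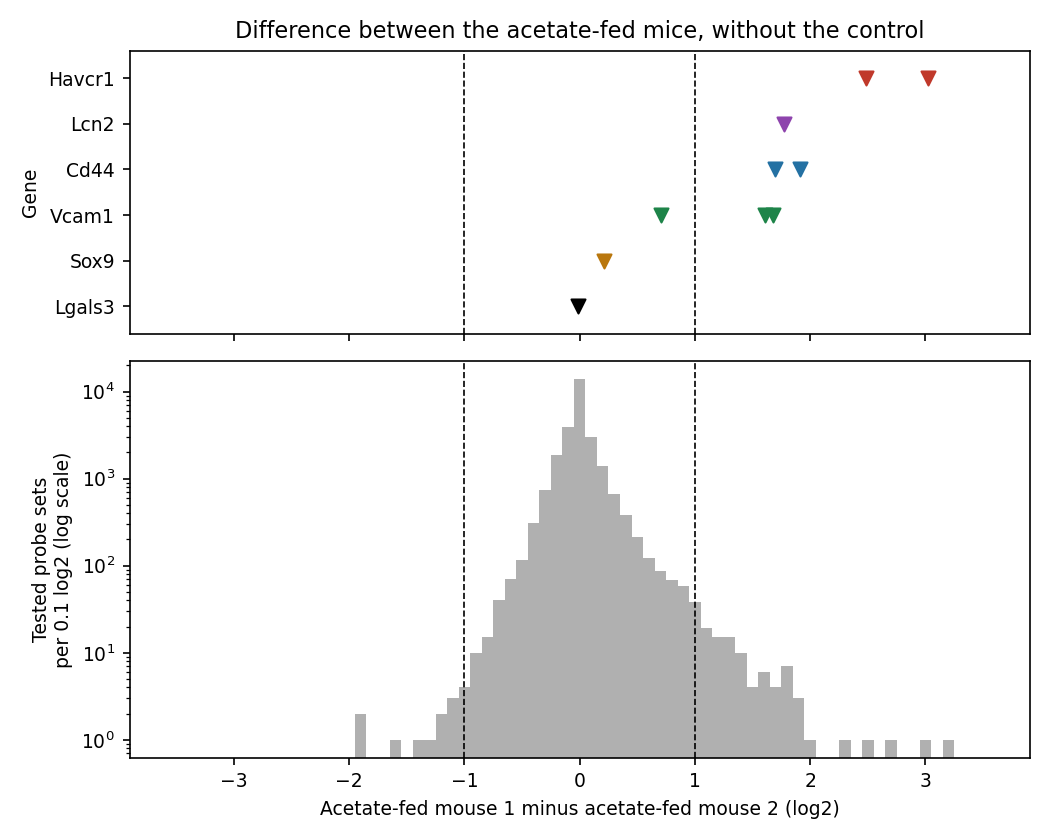
Difference between acetate-fed mouse 1 and acetate-fed mouse 2 (horizontal axis, log2) for the tested probe sets of each injury marker (upper panel) and for all 27022 tested probe sets as a histogram with a logarithmic count axis (lower panel). Dashed lines mark 2-fold. Both Havcr1 probe sets lie beyond 2, and Lgals3 lies at -0.01.

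Probe sets of a gene agreed in direction where they were tested, and disagreed in size. For Havcr1, Cd44 and Vcam1, the genes with more than 1 tested probe set, every tested probe set was higher than the control in both mice and differed more in mouse 1. For Havcr1 and Cd44, 1 of the 2 was tested only through mouse 1, so a larger difference there was fixed by the filter; the 3 Vcam1 probe sets passed on every array. The differences in mouse 1 spanned 2.70 to 3.68 for Havcr1, 2.13 to 2.77 for Cd44 and 1.02 to 3.11 for Vcam1. In mouse 2 they spanned 0.21 to 0.66, 0.44 to 0.86 and 0.31 to 1.43. With the untested probe sets included, Cd44 no longer agreed throughout, because 1443265_at was equal to the control in mouse 1, and no Sox9 probe set was higher in both mice. Lcn2 and Lgals3 have 1 probe set each, so agreement could not be examined for them. Where a lower size on 1 probe set comes from was not tested.

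No promoter sequence was at hand for Vcam1 or Sox9. The letters upstream of the other 4 analysed markers are shown: Havcr1, Lcn2 and Cd44, which shared the order of arrays, and Lgals3, which did not. Each is the 250 bases before a RefSeq transcript start on build GRCm38.p6, 5′ to 3′, and capitals mark matches on either strand to a loose form of the NF-kB site, 3 G, any 5 bases and 2 C.
Havcr1, chr11:46739973-46740222, + strand: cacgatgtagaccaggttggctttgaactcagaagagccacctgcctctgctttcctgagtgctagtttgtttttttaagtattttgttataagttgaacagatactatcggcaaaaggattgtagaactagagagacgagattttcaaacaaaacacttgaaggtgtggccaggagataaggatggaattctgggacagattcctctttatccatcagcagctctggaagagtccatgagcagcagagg
Lcn2, chr2:32387740-32387989, - strand: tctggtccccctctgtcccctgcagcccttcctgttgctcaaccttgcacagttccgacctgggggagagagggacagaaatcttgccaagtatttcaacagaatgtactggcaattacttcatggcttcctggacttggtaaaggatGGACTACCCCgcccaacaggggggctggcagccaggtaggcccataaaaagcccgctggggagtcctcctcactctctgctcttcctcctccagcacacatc
Cd44, chr2:102901666-102901915, - strand: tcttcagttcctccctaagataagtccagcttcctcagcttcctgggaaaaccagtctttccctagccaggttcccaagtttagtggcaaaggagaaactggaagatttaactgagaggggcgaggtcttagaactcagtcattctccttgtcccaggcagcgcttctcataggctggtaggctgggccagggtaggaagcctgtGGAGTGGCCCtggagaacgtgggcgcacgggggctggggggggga
Lgals3, chr14:47373610-47373859, + strand: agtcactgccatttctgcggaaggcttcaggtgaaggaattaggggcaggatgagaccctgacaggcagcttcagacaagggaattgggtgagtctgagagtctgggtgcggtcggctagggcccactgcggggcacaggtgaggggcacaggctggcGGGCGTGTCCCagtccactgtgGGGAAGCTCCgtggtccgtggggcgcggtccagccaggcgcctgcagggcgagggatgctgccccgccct
The Lcn2 and Cd44 windows held 1 match each, and the Lgals3 window held 3, of which 2 overlap; the Havcr1 window held 0, as did those before its other RefSeq starts. Of 32851 windows of the same length, 45.8% held a match on either strand, so the matches do not set these genes apart. The AP-1 letters TGANTCA (in 6.75% of windows) and the TATA box letters TATAAA (in 12.4%), also searched on both strands, were in 0 of these windows. A match is a string of letters, not a measured site.

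The pattern of each marker over the 2 differences was set beside those of the other genes, as the distance between the pairs of log2 differences. Nearest to Havcr1 was Timp1, a tissue inhibitor of metalloproteinases, at 3.57 in mouse 1 and 0.82 in mouse 2 (distance 0.20); the next, the fibrillar collagen genes Col1a1 and Col3a1, were 0.95 away. Nearest to Cd44 were S100a8, a calprotectin subunit of neutrophils, at 2.70 and 0.94 (distance 0.11), and again Col1a1 (0.16) and Col3a1 (0.21). Lcn2 had 0 genes within 0.5, and its nearest, the near-identical lysozyme genes Lyz2 and Lyz1, whose probes may share transcripts, and the matrix gene Tnc, lay 1.11, 1.21 and 1.32 away. Vcam1 had 22 genes within 0.5, led by Thbs2, an immunoglobulin kappa variable gene and Basp1. Lgals3 had 535, led by Tra2a, Pamr1 and Slc5a3, and Sox9 10940, led by Rasl12, Stag1 and Nemp2, so a near pattern says little for these. The distance rests on 3 arrays, and all differences share the control.

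Other genes linked to tubular injury and repair had smaller median differences. From a list of 20 genes 19 were tested, and 12 of these stood above the control in both mice, against 26.0% of all genes, and 3 were lower in both, against 30.9%. Their medians were 0.36 in mouse 1 and 0.11 in mouse 2. By limma 3 rose and 0 fell, against 3.97% and 4.92% of all genes: the cell-cycle inhibitor gene Cdkn1a (8.17 in the control kidney, 9.59 in that of mouse 1 and 9.64 in that of mouse 2; adjusted p = 0.0442), the keratin gene Krt18 (9.06, 9.81 and 9.80; adjusted p = 0.0177) and the urokinase receptor gene Plaur (6.80, 7.03 and 7.03; adjusted p = 0.0126). At an unadjusted p under 0.05 the counts were 4 and 0, against 8.51% and 10.8% of all genes. Without the tied pairs 8 passed as higher and 2 as lower, against 6.6% and 6.12% of the 9451 genes in that fit. List genes with tied acetate-fed values, such as Plaur, were not in it. Like Lgals3, Cdkn1a and Krt18 had nearly equal values in the acetate-fed mice, whereas those of Plaur were exactly tied. The intermediate filament gene Vim, at 9.05, 10.34 and 9.63, and the ceruloplasmin gene Cp, at 9.68, 10.78 and 10.32, kept the order of Havcr1 and Cd44, with mouse 1 highest, and did not pass limma's test (adjusted p = 0.671 and 0.534). Krt20, a keratin of injured tubules named here after its values were seen, measured 4.70 in the control kidney, 5.50 in that of mouse 1 and 4.70 in that of mouse 2.

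Genes whose products bind these markers had small median differences from the control. From a list of 20 binding partners 16 were tested; 8 stood above and 2 below the control in both mice (26.0% and 30.9% of all genes), 0 passed 2-fold in either mouse, and the medians were 0.08 and 0.07. The ERM protein gene Msn, whose product moesin ties CD44 to the actin skeleton, measured 9.96 in the control kidney, 10.67 in that of mouse 1 and 10.30 in that of mouse 2. Itga4, a subunit of the integrin that binds VCAM-1, was 4.81, 5.37 and 5.01. Lrp2, the proximal tubule receptor megalin, which takes up NGAL, was 12.06, 11.99 and 11.78. By limma 1 partner rose, Mgat5, which builds sugar branches that galectin-3 binds (1.06-fold in each mouse; adjusted p = 0.0304), again with tied acetate-fed values; 1 in 16 is near the 3.97% of all genes. Among 13 tested family relatives of a list of 19, 4 stood above the control and 1 below it in both mice, the first near the 26.0% of all genes, with a median of 0 in each. Limma called 0 of the 13, with 0 at an unadjusted p under 0.05, and 1 as higher without the tied pairs. The galectin genes went different ways: Lgals9 was 1.93-fold above the control in mouse 1 and 1.38-fold in mouse 2, Lgals1 1.59-fold and 1.10-fold, and Lgals8 was 0.84-fold and 0.79-fold of the control.

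**Figure D4:**
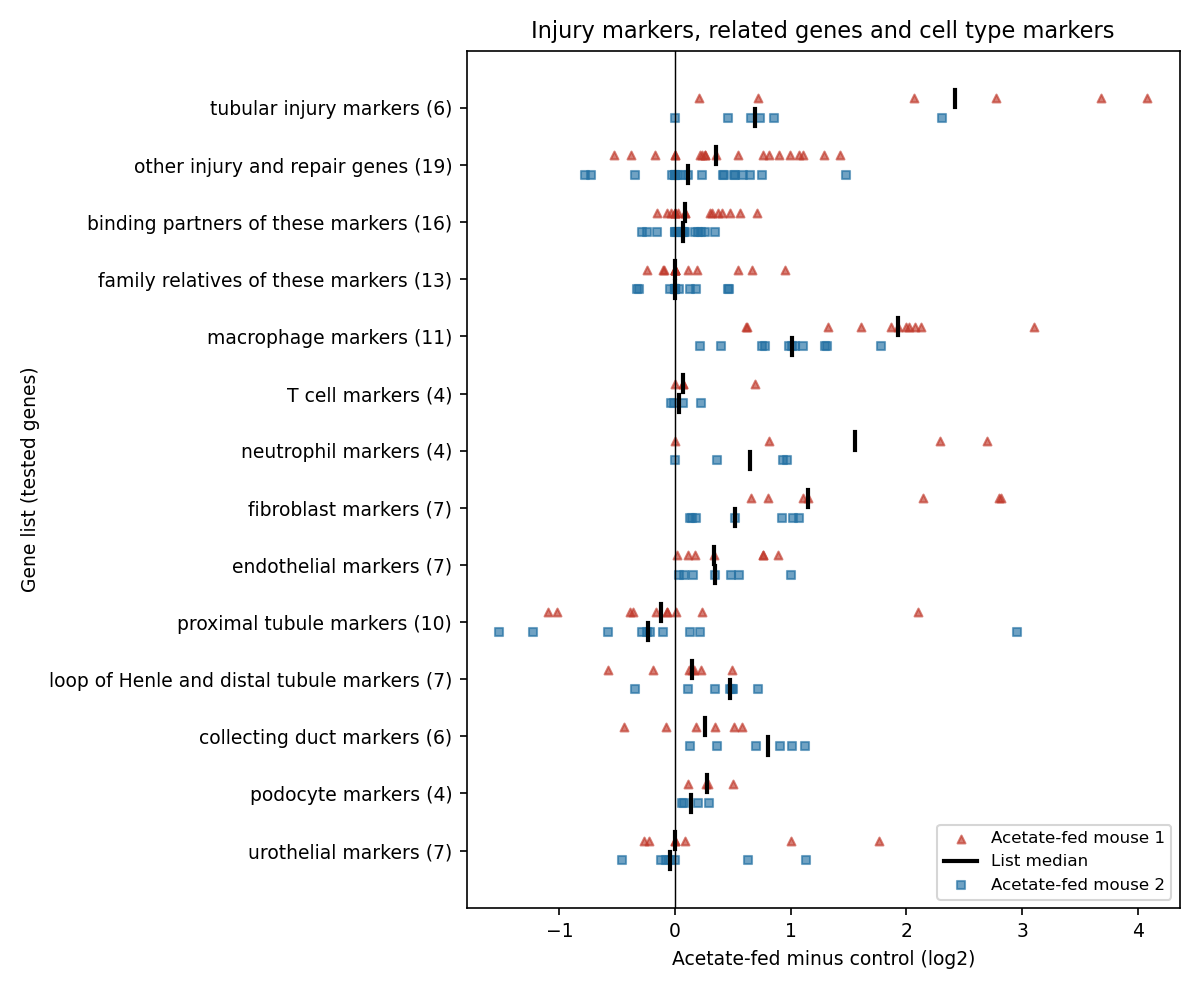
Difference from the control (horizontal axis, log2) of each tested gene in acetate-fed mouse 1 (red triangles) and acetate-fed mouse 2 (blue squares), by gene list (rows, with the number of tested genes). Black bars are list medians. The injury markers and the macrophage markers have the medians furthest to the right in mouse 1, at 2.42 and 1.92, and the proximal tubule median is below 0 in both mice.

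Markers of some other cell types also stood above the control, where 26.0% of all genes did so in both mice. Of 11 tested macrophage markers, 11 were higher in both acetate-fed kidneys, and their summed level measured 11.26 in the control kidney, 13.16 in that of mouse 1 and 12.28 in that of mouse 2 on the log2 scale, or 3.74-fold and 2.03-fold above the control. This order of arrays was also that of Havcr1, Lcn2, Cd44 and Vcam1, and of the summed neutrophil and fibroblast markers, among others. Lgals3, which macrophages also make, did not have it. Of 4 tested neutrophil markers, 3 were higher in both, with summed levels of 6.63, 8.48 and 7.27. Among them S100a8 measured 4.52 in the control kidney, 7.22 in that of mouse 1 and 5.46 in that of mouse 2, whereas Elane, neutrophil elastase, was 4.75 on all 3 arrays and Mpo, myeloperoxidase, was below the mean required for testing. Ly6g was not analysed here. The 7 fibroblast markers were all higher in both, with summed levels of 11.53, 13.19 and 12.05. Limma's main fit called 0 of the macrophage, neutrophil and fibroblast markers, against 3.97% of all genes higher and 4.92% lower. Without the tied pairs 10, 3 and 5 of them passed as higher and 0 as lower, against 6.6% and 6.12% of the genes in that fit. The part of these cells in the Lcn2, Cd44, Vcam1 and Lgals3 differences was not tested. The 7 markers of endothelial cells, which also make Vcam1, were higher in both mice at 7 genes, with summed levels of 11.87, 12.17 and 12.14. Their median differences were 0.335 in mouse 1 and 0.344 in mouse 2, so the acetate-fed mice were nearly equal. The part of endothelial cells was not tested either. Of the 4 T cell markers tested, 2 exceeded the control in both acetate-fed kidneys, and their median differences were 0.07 and 0.03. Urothelial markers were higher at 2 and lower at 2 of 7, and their median differences were 0 and -0.05. The higher were Krt15, 3.40-fold and 2.19-fold above the control in mouse 1 and mouse 2, and Krt5, 2.00-fold and 1.54-fold. Of the lower, Upk3a was further from the control, at 0.83-fold and 0.73-fold of it. The 10 proximal tubule markers, from the cells in which Havcr1 is induced, were lower in both mice at 7 genes and higher at 3. Of all genes, 30.9% were lower in both. Their summed levels were 15.65, 15.47 and 15.41, but single genes moved strongly in opposite directions. Slc7a13 was 4.27-fold and 7.74-fold above the control in mouse 1 and mouse 2. Slc13a3 was 0.47-fold and 0.35-fold of the control, and Slc22a6 0.49-fold and 0.43-fold.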

How the data were processed

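Total RNA from whole mouse kidney was biotin-labelled and hybridised to arrays, 1 per mouse. The table deposited by the authors holds log2 values for 45101 probe sets. That they are on a log2 scale and share a common distribution was read from the values. The submitters' processing notes name MAS5, which computes each array alone. Values exactly tied between arrays, as for many probe sets here, are unusual for it, so the step that made the deposited values is uncertain, and limma's calls depend on those ties. Background, saturation and detection calls were not analysed here. Precision is limited by the number of arrays. The labels name separate mice. The p-values rest on the spread between the acetate-fed pair and on a spread that limma takes from all probe sets together. They hold no spread between control mice.

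Affymetrix controls (64 probe sets) were dropped. Of the rest, 34945 had 1 symbol in the platform annotation, 932 had several and 9160 were unnamed. Spp1 had no named probe set and is not analysed here.

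The test was limma 3.58.1 in R 4.3.3 (lmFit, eBayes with intensity trend, Benjamini-Hochberg adjustment at 0.05 over 27022 probe sets), acetate against control, with 1 residual degree of freedom from the acetate-fed pair. It was tested on simulated data whose noise was drawn without the exactly tied pairs, so the simulation does not cover calls that rest on ties. Each gene stands by the highest-mean probe set among those tested. The members, lists and rules were chosen with earlier results of these data known. Named were all members, list genes past limma or 2-fold in both mice, up to 2 further genes per list, and the 3 genes nearest each member; from the cell marker lists only summed levels and a few genes are given, and Slc34a1, Elane, Lrp2, Lgals8 and Krt20 were added afterwards. Tables and plots used Python 3.11.15, pandas 2.3.3 and matplotlib 3.10.9. Alternatives were other filters, normalizations, fits, thresholds and probe set choices, and leaving out each acetate-fed mouse.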

Additional observations from a re-analysis of the deposited data

How the results depend on the processing

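With 1 control array and 1 residual degree of freedom, the calls of limma's main fit rest mostly on the spread of a single pair. The 1 member call, Lgals3, became 0 calls in the upper 40% of probe sets, after quantile normalization and after median centring; those fits called 0 probe sets of the whole array, and an unadjusted p under 0.05 was reached by 3513, 4303 and 4959. Without the exactly tied pairs 9 member probe sets passed as higher. The other fits (no filter, no intensity trend) left 1 call, and no fit called a member lower. At a threshold of 1.5-fold, 4 genes passed in mouse 2 and 4 in both, in place of 1. At 2-fold, leaving out mouse 1 gave 1 gene, as with both mice, and leaving out mouse 2 gave 4. These are the counts of each mouse alone given above, so they are no separate check. At 2-fold the count in both mice is thus limited by mouse 2, and the count of 4 comes from mouse 1 alone. Of the mean differences of the 6 genes under all alternatives, 0 turned sign. That of Sox9, 0.10, became 0 as the median over its probe sets and without mouse 1. That of Cd44 was 0.84 as the median over its probe sets against 1.81. That of Havcr1 was 0.66 without mouse 1 and 3.68 without mouse 2. No paired analysis was possible because the control group has 1 sample.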

Other observations

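Markers of the collecting duct and of the loop and distal tubule stood further from the control in mouse 2, by their medians. All 6 tested collecting duct markers were lower in mouse 1 than in mouse 2, the reverse of Havcr1, Lcn2, Cd44 and Vcam1, and their median difference from the control was 0.26 in mouse 1 but 0.80 in mouse 2. The vasopressin-regulated water channel gene Aqp2 measured 11.43 in the control kidney, 11.93 in that of mouse 1 and 12.55 in that of mouse 2 (limma adjusted p = 0.674), and Aqp4, a water channel of the same cells, was 8.45, 9.04 and 9.36 (limma adjusted p = 0.472). Of 7 loop of Henle and distal tubule markers, 1 was higher in mouse 1 than in mouse 2, with medians of 0.14 and 0.47. In podocytes, the filtering cells of the glomerulus, all 4 tested markers were higher than the control in both mice, against 26.0% of all genes, with medians of 0.28 and 0.14. Over the whole array, 30.7% of tested probe sets were higher in mouse 1 than in mouse 2, and 33.7% were tied. The difference between the lists was not tested.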
